A study of Mus musculus with 12 samples.

Results

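The mitochondrial respiratory chain passes electrons from NADH and succinate to oxygen through 4 membrane complexes. Complex I oxidizes NADH, complex II is succinate dehydrogenase, complex III is the cytochrome bc1 complex and complex IV is cytochrome c oxidase. ATP synthase, counted as complex V, uses the proton gradient that complexes I, III and IV build. Most subunits are encoded in the nucleus, and in macrophages and microglia a turn from respiration towards glycolysis is a well-known feature of activation by lipopolysaccharide (LPS), the bacterial cell wall component that acts through Toll-like receptor 4.

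The genes described here are those whose symbol on the Affymetrix Mouse Genome 430 2.0 array starts with Nduf, Sdha to Sdhd, Uqcr, Cox4 to Cox8 or Atp5, leaving out the Ndufaf assembly factors, Ndufa4 and Cox6a2. This rule gave 80 of the 18194 genes on the array, with 166 probe sets, and for each gene the probe set with the highest mean signal was used. Complex I held 35 of them, complex II 4, complex III 8, complex IV 16 and complex V 17. Names here are those of the array annotation matched to RefSeq, so that ATP synthase genes appear as Atp5j or Atp5b. A further 7 probe set annotations name a subunit together with another gene or a pseudogene and were not used, which leaves Ndufa11 and Ndufs6 without a value.

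The arrays covered 4 conditions of BV-2 cells, an immortalized line of mouse microglia, which is a model of these cells and not primary tissue. Cells were treated for 24 h with 50 µM luteolin and 50 ng/ml LPS together, with 50 ng/ml LPS alone or with 50 µM luteolin alone, or were left untreated as the control, with 3 arrays per condition and 12 in all. Luteolin is a plant flavonoid and was added from a stock in DMSO, whereas the control of the arrays is described as untreated or control-treated, with no statement that it received DMSO, so luteolin and its solvent cannot be told apart. Of 10 microglia and macrophage markers, 8 had signals of 50 or more on all 12 arrays. Cx3cr1 averaged only 43.7 to 54.6 in the 4 conditions. Of the markers of other cells, 1 of 5 neuronal (Rbfox3), 1 of 4 astrocyte (Gfap), 2 of 3 oligodendrocyte (Mbp and Mag) and 0 of 4 fibroblast genes also did, with means in the 4 conditions of at most 214 for Rbfox3 and 90.6 for the others. Of these lists 3 neuronal, 2 astrocyte, 1 oligodendrocyte and 3 fibroblast genes stayed under 50 on all arrays. Snap25, Aqp4, Mog and Col1a1 were among these.

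Signals are linear intensities, differences are on the log2 scale, and a signal of 50 was taken as the lower limit of a measured gene. Of the 80 genes, 77 reached it as the geometric mean of at least 1 condition and were tested among 12071 genes, and 75 reached it on all 12 arrays. The 3 not tested were Ndufb4, an accessory subunit of complex I, and the tissue-restricted complex IV isoforms Cox4i2 and Cox7b2. A probe set that names Ndufb4 together with Ndufb4b and Ndufb4c was among those not used. The low signal of Ndufb4 thus rests on 1 other probe set and does not show that the gene is silent. Since the intensities of all arrays were given the same distribution, a shift of most genes in one direction would be hidden. In bulk RNA, fewer cells and less RNA per cell cannot be told apart.

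Promoters of a few genes named below are shown to let the letters be seen. RefSeq (GRCm38.p6) windows from 250 bases before to 50 bases after the transcription start were read for 66 of the 80 subunit genes. Among these were Ndufb4 and Cox7b2, which were not tested. Capitals mark CGCANGCG, the core bound by nuclear respiratory factor 1 (NRF1), CCGGAAG, the core bound by ETS factors such as GABP, and AAGATGGC, the core bound by YY1, on either strand. Uqcr11 (chr10:80406772-80407071, minus strand) and Atp5j (chr16:84834927-84835226, minus strand, the downstream of 2 listed starts, the other of which holds none of these letters) were higher with luteolin. Uqcrh (chr4:116075021-116075320, minus strand) holds the ETS core on the opposite strand, read as CTTCCGG. Atp5b (chr10:128083057-128083356, plus strand) was not higher with luteolin and holds none of the 3 cores. These promoters were picked, and other genes went the other way. Ndufa8 holds the NRF1 letters and gave -0.09 with luteolin over both states. Cox7a2 holds none of the 3 cores and gave 0.27.
Uqcr11: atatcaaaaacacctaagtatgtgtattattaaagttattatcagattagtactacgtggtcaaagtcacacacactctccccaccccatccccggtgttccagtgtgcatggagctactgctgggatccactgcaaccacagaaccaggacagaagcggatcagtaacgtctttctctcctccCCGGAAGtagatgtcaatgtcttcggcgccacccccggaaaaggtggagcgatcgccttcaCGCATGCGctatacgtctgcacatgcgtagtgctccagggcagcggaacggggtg
Atp5j: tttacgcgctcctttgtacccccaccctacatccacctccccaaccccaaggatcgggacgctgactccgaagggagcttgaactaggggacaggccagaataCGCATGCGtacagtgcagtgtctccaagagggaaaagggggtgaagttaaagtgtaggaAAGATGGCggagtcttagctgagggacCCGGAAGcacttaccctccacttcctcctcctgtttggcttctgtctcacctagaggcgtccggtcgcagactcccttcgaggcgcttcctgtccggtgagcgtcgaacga
Uqcrh: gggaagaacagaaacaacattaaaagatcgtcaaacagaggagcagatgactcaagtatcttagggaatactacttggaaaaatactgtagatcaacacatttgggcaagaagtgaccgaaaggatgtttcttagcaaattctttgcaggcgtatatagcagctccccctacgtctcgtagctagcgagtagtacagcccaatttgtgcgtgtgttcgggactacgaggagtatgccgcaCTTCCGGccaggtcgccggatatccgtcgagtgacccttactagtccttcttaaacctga
Atp5b: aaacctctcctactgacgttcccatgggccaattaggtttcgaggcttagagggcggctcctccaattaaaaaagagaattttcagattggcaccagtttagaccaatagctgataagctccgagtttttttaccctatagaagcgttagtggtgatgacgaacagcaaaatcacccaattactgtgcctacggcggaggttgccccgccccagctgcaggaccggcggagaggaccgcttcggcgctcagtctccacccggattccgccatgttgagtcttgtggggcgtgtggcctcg

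The NRF1 letters stood in 24 of the 66 subunit promoters (36.4%), against 9.22% of all 27025 RefSeq gene promoters of the same length and 19.1% of those of the genes tested. Ndufb4, which was not tested, is 1 of the 24. CCGGAAG stood in 17 of them (25.8%), against 9.93% of all and 19.7% of tested genes. AAGATGGC stood in 9 (13.6%), against 3.19% and 5.30%. The antioxidant response letters TGACNNNGC stood in 8 (12.1%), against 14.0% and 16.8%. None of these strings contains another. These are matches of letters and not measured sites of binding.

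The first question was how luteolin changed the respiratory chain genes over both states, that is, on the luteolin + LPS and luteolin arrays together against the LPS and control arrays together. Of the 77 subunit genes, 2 rose, Uqcr11 and Atp5j, and none fell at an adjusted p under 0.05 in limma, whereas 1.16% of all genes tested rose and 1.92% fell. The share among the subunits was 2 of 77, and with counts so small it is not set apart from the background. The more general feature was small and wide. The median log2 difference of the 77 genes was 0.12, with 60 above 0, while the median of all genes was 0.01 with 51.0% above 0. At an unadjusted p under 0.05, 19 subunit genes were higher and 1 was lower, against 7.99% and 11.4% of all genes.

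Uqcr11 encodes a small accessory subunit of complex III. Its signals were 3329.9, 4499 and 3581 on the luteolin + LPS arrays, against 2851, 2324 and 2048 on the LPS arrays. On the luteolin arrays they were 3940.5, 4670.2 and 4341, against 3312, 3357 and 3386 on the control arrays. All luteolin arrays lay above all control arrays, and all luteolin + LPS arrays above all LPS arrays, with the highest LPS signal in replicate 1. Over both states Uqcr11 rose by 0.51 ± 0.105 (log2 ± SE, 6 arrays against 6, adjusted p = 0.0301), a ratio of 1.43. The differences within replicates 1, 2 and 3 were 0.24, 0.71 and 0.58.

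Atp5j encodes coupling factor 6, a part of the peripheral stalk that joins the catalytic head of ATP synthase to its membrane sector. Its signals were 6935, 8169.9 and 7426 with luteolin + LPS, against 5675, 5631 and 5528 with LPS. They were 7056, 7924 and 7823 with luteolin, against 6024, 6145 and 6287 in the control. In both pairs the groups were separate. Over both states Atp5j rose by 0.36 ± 0.0698 (adjusted p = 0.025), a ratio of 1.28, with 0.26, 0.45 and 0.37 in the 3 replicates. Neither call held in every fit that left out 1 array, although the differences stayed at 0.33 to 0.39 for Atp5j and 0.45 to 0.58 for Uqcr11. Each call was lost without control replicate 2 or 3, luteolin replicate 2 or 3, or LPS replicate 2 or 3, where adjusted p-values were 0.0565 to 0.0785 for Atp5j and 0.0689 to 0.0838 for Uqcr11. That of Uqcr11 was also lost without control replicate 1 (0.0556) and luteolin + LPS replicate 2 (0.0544).

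With the replicate number as a block, 6 subunit genes rose over both states and none fell, against 3.89% and 6.22% of all genes. They were Atp5j (adjusted p = 0.0118), Uqcr11 (0.0175), Uqcrh (0.0406), Cox6b1 (0.0435), Cox7a2 and Atp5mpl. Without the block the adjusted p was 0.0788 for Uqcrh, 0.112 for Cox6b1, 0.0771 for Cox7a2 and 0.0851 for Atp5mpl. The products have different places in the chain, as Uqcrh is the hinge protein of complex III, Cox6b1 a subunit of complex IV on the side of the intermembrane space, Cox7a2 the widely expressed isoform of another complex IV subunit and Atp5mpl a small protein of the ATP synthase membrane part.

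Uqcrh had the largest difference over both states, 0.57 ± 0.157. Its signals were 5585, 8732 and 5772 with luteolin + LPS, against 6664, 4016 and 3875 with LPS, and these groups overlapped because LPS replicate 1 was high. They were 8868, 8489 and 8207 with luteolin, against 5986, 5408 and 4826 in the control, with no overlap. A second probe set of Uqcrh gave 0.51. Cox6b1 showed the same order, with 11062, 11579 and 10478 in luteolin + LPS cells against 10894, 7555 and 7325 in LPS cells, and 11657, 11585 and 11874 in luteolin cells against 11046, 8174 and 8541 in control cells. In replicate 1 it was almost level in all 4 conditions. Atp5k, subunit e of ATP synthase, which takes part in forming its dimers, differed by 0.37 ± 0.106 over both states (adjusted p = 0.0898), and its 2 other probe sets gave 0.42 and 0.47.

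**Figure D1:**
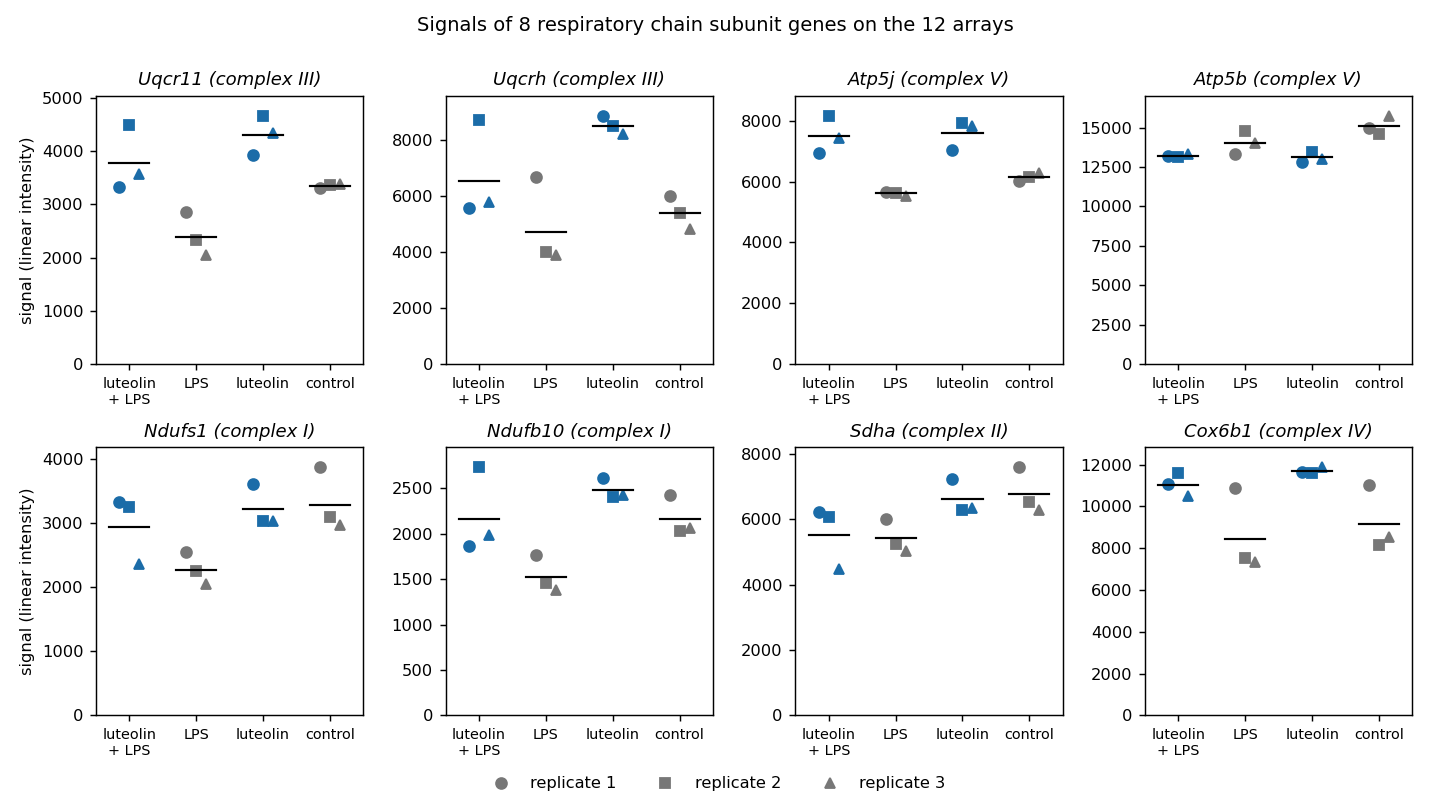
Signals (linear intensity, axis from 0) of 8 subunit genes on the 12 arrays, by condition, with a symbol for each replicate number and a line at the geometric mean of 3 arrays. Uqcr11 and Atp5j are separate between each luteolin group and its counterpart without luteolin, Ndufs1 and Ndufb10 lie lowest with LPS alone, and Atp5b lies lower with luteolin than in the control.

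The lowest differences over both states were those of Ndufs7, Atp5b, Atp5a1 and Ndufs3. Atp5b, the catalytic beta subunit of ATP synthase, had 13219.8, 13174 and 13303 with luteolin + LPS, against 13336, 14787 and 14052 with LPS, and 12835, 13486 and 13044 with luteolin, against 14999.5, 14610.2 and 15765 in the control. Both luteolin groups lay wholly below their counterparts, yet the difference over both states was only -0.15 ± 0.0635 (adjusted p = 0.242). Atp5a1, the alpha subunit that alternates with it in the head, gave -0.10 (adjusted p = 0.424), and its 2 other probe sets gave -0.25 and -0.17. The core subunits Ndufs7 and Ndufs3 of complex I gave -0.18 and -0.10 (adjusted p = 0.582 and 0.562). None of these passed the test.

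Grouped by place in ATP synthase, the 9 tested genes of the stalk and membrane part had a median difference over both states of 0.20 with 8 above 0, the 3 c-ring genes 0.19 with 2 above 0 and the 5 genes of the F1 head 0.10 with 3 above 0. In complex I, 6 of the core genes conserved in bacteria were measured. Their median over both states was 0.01 with 4 above 0, against 0.12 with 20 above 0 for the 28 other complex I genes. Complex III had 0.15 with all 8 above 0, complex II 0.08 with 3 of 4, complex IV 0.07 with 12 of 14 and complex V 0.14 with 13 of 17. These medians were not tested against each other.

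**Figure D2:**
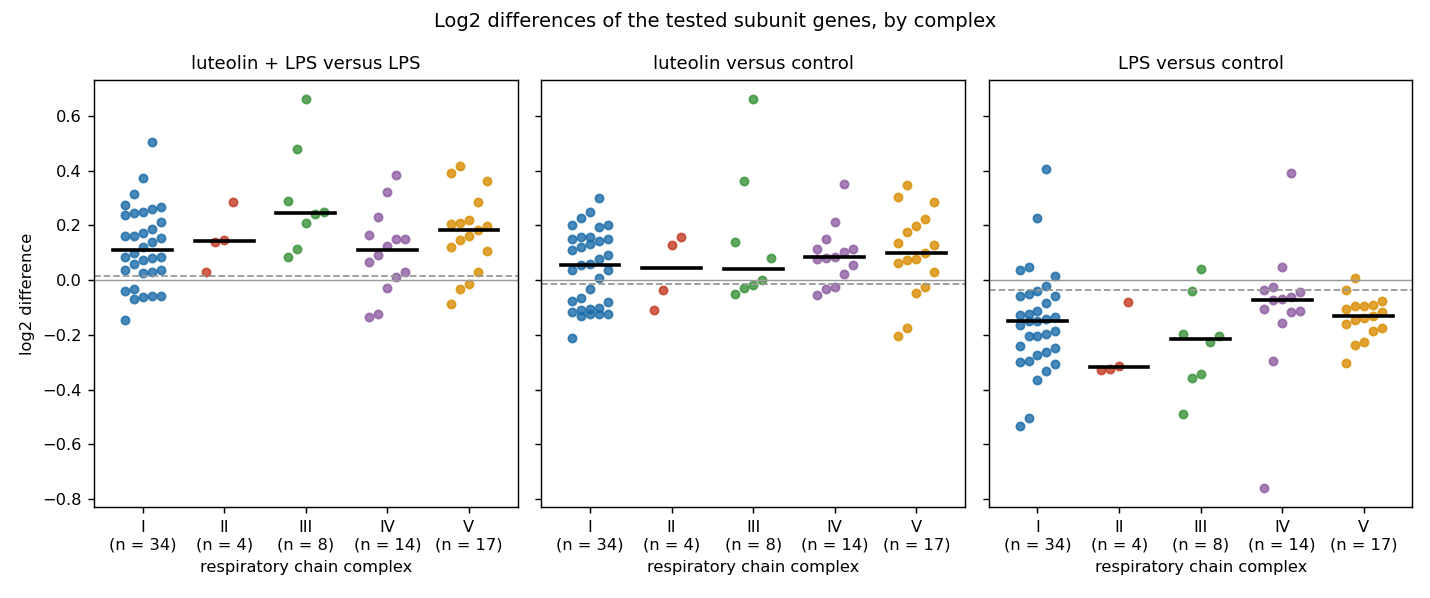
Log2 differences (vertical axis) of the 77 tested subunit genes by complex, 1 point per gene, for luteolin + LPS against LPS, luteolin against control and LPS against control. Black bars are medians of a complex and dashed lines the medians of all 12071 genes. Most points lie above 0 in both luteolin panels and below 0 in the LPS panel.

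In resting microglia, luteolin was set against the control. No subunit gene and no other gene passed the test (0.0% of all genes), while at an unadjusted p under 0.05 limma gave 6 subunit genes higher and 1 lower, against 3.18% and 5.91% of all genes. The median log2 difference of the subunit genes was 0.08 with 52 of 77 above 0, against -0.01 and 47.1% for all genes. Luteolin arrays lay wholly above control arrays for 20 of the 77 genes (26.0%) and wholly below for 3, against 8.29% and 11.3% of all genes. The 20 were 4 genes of complex I, 3 of complex III, 6 of complex IV and 7 of complex V. The largest differences were those of Uqcrh (0.66 ± 0.222, adjusted p = 0.403), Uqcr11 (0.36), Cox6b1 (0.35) and Atp5k (0.35), and the lowest those of Ndufs7 (-0.21), Atp5b (-0.20), Atp5a1 (-0.18) and Ndufs3 (-0.13). That of Ndufs7 was -0.00768 without control replicate 1.

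In LPS-activated microglia, luteolin + LPS was set against LPS. Again 0 subunit genes passed without the block, where 0.149% of all genes rose and 0.356% fell, and 15 subunit genes were higher and 0 lower at an unadjusted p under 0.05, against 6.89% and 7.98% of all genes. With the block Atp5j (adjusted p = 0.0397) and Uqcr11 (0.0400) rose, against 1.95% of all genes. The median was 0.15 with 64 of 77 above 0, against 0.02 and 52.9% for all genes. Luteolin + LPS arrays lay wholly above LPS arrays for 19 genes (24.7%) and wholly below for 2, against 8.04% of all genes in each direction. Uqcr11 differed by 0.66 ± 0.149 (adjusted p = 0.0694), a ratio of 1.58, and Atp5j by 0.42 ± 0.0987 (adjusted p = 0.082). Ndufb10, an accessory subunit of the membrane arm of complex I, had signals of 1868, 2732 and 1989 with luteolin + LPS, against 1763, 1456 and 1379 with LPS, a difference of 0.51 ± 0.158 (adjusted p = 0.161). Its groups did not overlap. The lowest differences were those of Ndufs7 (-0.15), Cox8c (-0.14), Cox5a (-0.12) and Atp5b (-0.09), and that of Ndufs7 was -0.03 without luteolin + LPS replicate 3.

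The 2 luteolin comparisons share no array. For 13 subunit genes the arrays with luteolin lay wholly above those without it in both, against 2.4% of all genes. These were Ndufa3, Ndufa7 and Ndufb7 of complex I, Uqcr11 of complex III, Cox6a1, Cox6c, Cox7a2 and Cox8a of complex IV, and Atp5d, Atp5g3, Atp5h, Atp5j and Atp5mpl of complex V. Of the 77 genes, 51 were above 0 in both comparisons, as were 33.0% of all genes, and 12 were below 0 in both. Across the 77 genes the differences in the 2 states correlated with an r of 0.715, against 0.488 across all 12071 genes. Genes are not independent replicates, and both comparisons draw on the same 3 stimulation experiments.

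**Figure D3:**
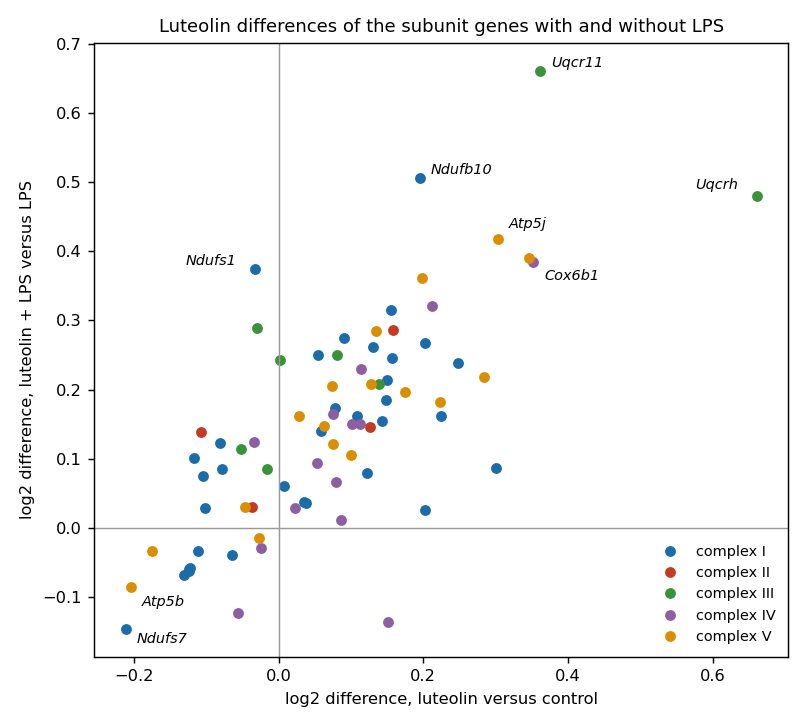
Log2 difference of each of the 77 subunit genes for luteolin + LPS against LPS (vertical axis) and for luteolin against control (horizontal axis), coloured by complex. Uqcr11, Uqcrh and Atp5j lie high on both axes, and Ndufs1 is high only on the vertical axis. Ndufs7 lies lowest on both axes, with Atp5b next to it on the horizontal axis only.

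Whether luteolin acted differently on LPS-activated and resting cells was asked with the interaction. No subunit gene and no other gene passed (0.0%), and at an unadjusted p under 0.05 there were 0 subunit genes in either direction, against 1.56% higher and 1.59% lower of all genes. The median was 0.07 with 63 of 77 above 0, against 0.03 and 56.0% for all genes. At a minimum signal of 100 the median of all genes was 0.06. The highest values were those of Ndufs1 (0.41), Uqcrc1 (0.32), Ndufb10 (0.31) and Uqcr11 (0.30), and the lowest those of Cox8c (-0.29), Ndufb1 (-0.21), Uqcrh (-0.18) and Ndufa4l2 (-0.18). Each had an adjusted p of 0.999, so a difference between the 2 states was not detectable with 3 arrays per condition.

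LPS alone was set against the control next, a comparison that uses the same LPS arrays as luteolin + LPS against LPS, so the opposite directions of the 2 are not independent of each other. The median of the subunit genes was -0.14 with 68 of 77 below 0, against -0.04 and 54.9% for all genes. The median of all genes moved with the minimum signal, from 0.02 without one to -0.08 at a minimum of 100. Most subunit genes were far brighter than these limits, and genes of like signal were not compared. In the 3 replicates the median of the subunit genes was -0.16, -0.13 and -0.17. LPS arrays lay wholly below control arrays for 30 genes (39.0%) and wholly above for 1, Cox8c, against 16.1% and 11.5% of all genes. The 30 were 15 genes of complex I, 9 of complex V and 2 each of complexes II, III and IV. None was called in limma, where 1.96% of all genes rose and 2.22% fell. At an unadjusted p under 0.05, 14 were lower and 1 higher, against 12.5% and 8.0% of all genes.

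With the block 3 of the 77 subunit genes fell, a smaller share than the 6.78% of all genes that fell. The calls thus do not set the subunits apart from the background. The 3 were Ndufs1, Ndufb11 and Cox7a1. Ndufs1, the largest iron-sulfur subunit in the electron entry arm of complex I, had 2538, 2256 and 2041 with LPS, against 3865, 3086 and 2963 in the control, and every LPS array lay below every control array. The difference was -0.53 ± 0.165, with -0.61, -0.45 and -0.54 within replicates (adjusted p = 0.1 without the block and 0.0156 with it). With luteolin + LPS its signals were 3324, 3253 and 2355, and replicate 3 of these lay within the LPS range. With luteolin alone they were 3600.5, 3022 and 3033.

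Ndufb11, an accessory subunit of the membrane arm of complex I encoded on the X chromosome, had 5998, 5068 and 5267 with LPS, against 7457, 6634 and 6928 in the control. The difference was -0.37 ± 0.107 (adjusted p = 0.085, and 0.027 with the block), and its 2 other probe sets gave -0.35 and -0.37. Cox7a1, the heart and muscle isoform of a complex IV subunit, was dim. It had 124, 183 and 100.2 with LPS, against 154, 306 and 235 in the control, and the groups overlapped because the replicates differed in both. Its difference of -0.76 ± 0.376 was the largest of any subunit gene in any comparison (adjusted p = 0.283, 0.0445 with the block and 0.105 with the replicate as a random block), and no subunit gene differed by more than 1 on the log2 scale. Ndufb10 gave -0.51 (adjusted p = 0.102) and Uqcr11 -0.49 (0.0929).

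Complex II has 4 subunits, all nuclear, and is also an enzyme of the citric acid cycle. Its flavoprotein Sdha, which oxidizes succinate, had 6008, 5242 and 5035 with LPS, against 7588, 6522 and 6284 in the control. The differences within replicates were -0.34, -0.32 and -0.32. Sdhb, the iron-sulfur subunit, had 5996, 5896 and 5906 with LPS, against 8402, 6766 and 7052 in the control. For both genes the groups did not overlap. The log2 differences were -0.32 for Sdha, -0.31 for Sdhb, -0.33 for the membrane anchor Sdhc and -0.08 for the anchor Sdhd, and none passed the test (adjusted p of 0.244, 0.157, 0.264 and 0.747). Other probe sets at a signal of 50 or more gave -0.48 and -0.33 for Sdha, -0.17 for Sdhc and 0.01 for Sdhd. The median of complex II with LPS was -0.32, against -0.21 for complex III, -0.15 for complex I, -0.13 for complex V and -0.07 for complex IV. With luteolin over both states the 4 genes gave -0.00, 0.02, 0.22 and 0.14, with adjusted p-values of 0.99, 0.946, 0.302 and 0.425. Here the other probe sets gave -0.10 and 0.13 for Sdha, 0.23 for Sdhc and 0.01 for Sdhd. The sign for Sdha turned under another scaling of the arrays.

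Few genes went up with LPS. The highest differences were those of Ndufb1 (0.41, adjusted p = 0.496), an accessory subunit of complex I, Cox8c (0.39, adjusted p = 0.147) and Ndufa4l2 (0.23, adjusted p = 0.337), followed by Cox5a (0.05). Ndufa4l2 gave 0.53, 0.01 and 0.13 in the 3 replicates. For Ndufb1 the value came mainly from replicate 1, where it was 1.12, against -0.08 and 0.18 in the others. Of the 7 isoforms known for restricted expression in other tissues, Cox7a1, Cox8c, Ndufa4l2 and Cox6b2 had signals of 50 or more on all 12 arrays. Cox8c, an isoform known from testis, had 361, 310.3 and 332 with LPS, against 245, 226 and 297 in the control. Cox8b reached 50 on 11 arrays, Cox4i2 on 2 and Cox7b2 on 0.

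The replicates differed in how far luteolin moved the subunit genes. The median difference over both states was 0.04 in replicate 1, 0.18 in replicate 2 and 0.10 in replicate 3. For complex V it was -0.01, 0.23 and 0.17, for complex III 0.06, 0.23 and 0.20, and for complex IV 0.07, 0.06 and 0.07. Relative to the control mean, the median subunit gene stood at -0.01, 0.07 and -0.02 on the luteolin + LPS arrays and at -0.11, -0.16 and -0.18 on the LPS arrays. It stood at 0.11, 0.06 and 0.05 on the luteolin arrays and at 0.06, -0.05 and -0.03 on the control arrays. The LPS arrays were thus the lowest 3 of the 12, and control replicate 1 lay within the range of the luteolin arrays.

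**Figure D4:**
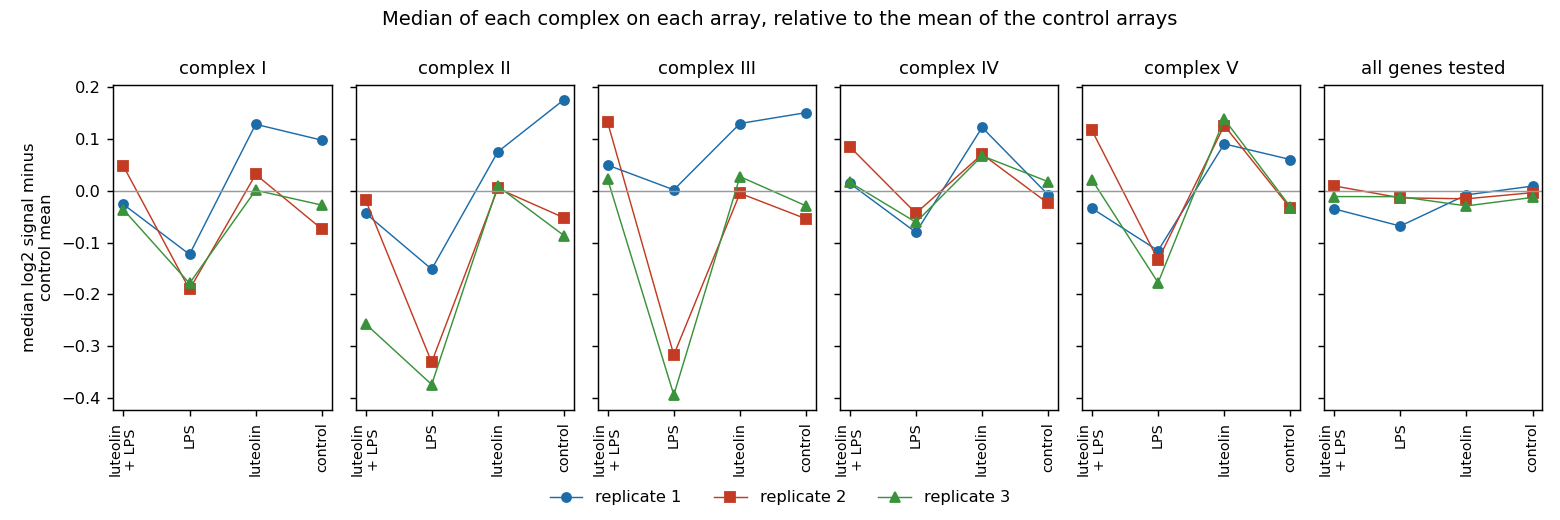
Median over the tested genes of a complex of the log2 signal minus the control mean (vertical axis), for each array by condition, with lines joining the arrays of 1 replicate number. Every complex is lowest with LPS alone in each replicate, and the medians of all genes tested stay near 0.

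The choice of probe set was checked on 76 other probe sets at 50 or more, from 47 of the genes. They had the sign of the probe set used in 60 cases for luteolin against control, 64 for luteolin + LPS against LPS, 62 for LPS against control and 64 for luteolin over both states. Their medians were 0.08, 0.12, -0.13 and 0.09.

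Among the regulators of respiratory genes, 19 were tested. Their median was -0.17 with luteolin against control, 0.05 with luteolin + LPS against LPS, -0.19 with LPS against control and -0.10 with luteolin over both states, where 2 fell and none rose, against 1.92% and 1.16% of all genes. Those were Nrf1, which encodes nuclear respiratory factor 1, and Gabpb1, which encodes the beta subunit of GABP. Nrf1 averaged 193 with luteolin + LPS against 243 with LPS, and 202 with luteolin against 326 in the control, and fell over both states by 0.51 ± 0.112 (adjusted p = 0.0381). Gabpb1 averaged 212 against 388 and 168 against 272 in the same pairs, and fell by 0.78 ± 0.173 (adjusted p = 0.0388). The DNA-binding partner Gabpa gave 0.18 (adjusted p = 0.796), Yy1 -0.15 (0.486) and Tfam, the mitochondrial transcription factor A, 0.10 (0.78). With the block Gabpb1 also fell with luteolin + LPS against LPS, where 2.84% of all genes fell, and Polrmt, the mitochondrial RNA polymerase, with LPS against control, where 6.78% fell. Ppargc1a, the coactivator PGC-1alpha, stayed under 50 on all arrays. Subunit genes with the NRF1 letters in their promoter had a median of 0.17 with luteolin over both states, against 0.07 for those without, and those with CCGGAAG 0.17 against 0.10. The order was the other way for AAGATGGC, with -0.02 against 0.13, and for TGACNNNGC, with 0.06 against 0.13. No test was made of these medians.

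The enzymes that feed the chain were described as counts. Of 17 tested genes of the citric acid cycle and pyruvate dehydrogenase, 16 were below 0 with luteolin against control, with a median of -0.13, and 10 were above 0 with luteolin + LPS against LPS, with a median of 0.01. With luteolin over both states Pdhb, the beta subunit of pyruvate dehydrogenase, fell by 0.29 ± 0.0664 (adjusted p = 0.0446). With LPS the median was -0.15 and 2 fell, against 2.22% of all genes, the pyruvate dehydrogenase subunit Pdha1 by 0.52 ± 0.106 (adjusted p = 0.0209) and the isocitrate dehydrogenase subunit Idh3g by 0.47 ± 0.115 (adjusted p = 0.0471). With the block 4 of the 17 fell with LPS, against 6.78% of all genes. Of 17 electron carriers and enzymes of ubiquinone synthesis, 14 were below 0 with luteolin against control (median -0.13) and 8 with luteolin + LPS against LPS (median 0.00). Coq3, a methyltransferase of that synthesis, fell by 0.50 with luteolin over both states (adjusted p = 0.0173), and Coq10b, which encodes a ubiquinone-binding protein, rose by 1.11 with LPS (adjusted p = 0.0355). Over all genes 1.92% fell and 1.96% rose in these comparisons. With the block 2 of these 17 rose with LPS, against 4.3% of all genes, and Coq3 also fell with luteolin + LPS against LPS, where 2.84% fell. Of the subunits encoded in mitochondrial DNA only ND5 of complex I had a usable probe set, and its differences with luteolin over both states were 0.88, -0.37 and 0.53 in the 3 replicates (adjusted p = 0.537).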

How the data were processed

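RNA of BV-2 cells was hybridized to 12 Affymetrix Mouse Genome 430 2.0 arrays, and the authors summarized the probes by RMA (background correction, quantile normalization, median polish). The deposited values are linear intensities per probe set, with array medians of 52.2 to 56.4, and arrays of 1 condition correlated with an r of 0.978 to 0.996. The number of arrays limits the precision. The methods name LPS for both agents of the joint treatment, where the labels give luteolin and LPS. One protocol in the labels names PUER cells, and all other labels BV-2.

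Of 45101 probe sets, 34958 named 1 gene. All 80 subunit genes matched RefSeq (GRCm38.p6), and 6123 genes under a signal of 50 in all 4 conditions were left out. The log2 intensities were fitted as 4 group means over 12 arrays in limma 3.58.1 (R 4.3.3), with empirical Bayes moderation, Benjamini-Hochberg adjustment over 12071 genes and a threshold of 0.05. The methods' probe-level SAM test needs single probes, which were not used here. The fit was tested on simulated data. Named were the subunit genes called, the 4 with the highest and lowest differences per contrast, the succinate dehydrogenase genes, the tissue-restricted isoforms and leading genes of other mitochondrial lists. Genes and lists were chosen with earlier results of these data known. Figures were drawn with matplotlib 3.10.9 (Python 3.11.15).

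The study describes 3 independent stimulation experiments, and the labels number the arrays 1 to 3. Deviations from the group means correlated in all 18 pairs of equal number (r of 0.101 to 0.591, median 0.42). Different numbers had a median of -0.30, which follows from the first, as the deviations within a condition sum to 0. The numbers were therefore taken as pairs for the differences within replicates and for a blocked fit, which is given where it changes a call. The main fit left the pairing out, and its standard errors and p-values are those printed wherever no block is named. Other alternatives were averaging probe sets, other signal minimums, median centring, a random block, array weights, an intensity trend, only the groups compared, and leaving out each array.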

Additional observations from a re-analysis of the deposited data

How the results depend on the processing

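The median difference of the subunit genes kept its direction in all 5 comparisons under all alternatives run. Without 1 array at a time it was 0.10 to 0.13 for luteolin over both states, 0.12 to 0.17 for luteolin + LPS against LPS, 0.05 to 0.11 for luteolin against control and -0.16 to -0.11 for LPS against control. Restricting the genes to those at 50 or more on all arrays, an alternative added after seeing the data, gave 0.12, 0.15, 0.08 and -0.14. Counts of called subunit genes moved more. With the replicate block they were 2 for luteolin + LPS against LPS, 3 for LPS against control and 6 for luteolin over both states, and with the block as random 2, 4 and 7, where Cox7a1 was lost with LPS (adjusted p = 0.105). These calls were higher, lower and higher. Of all genes 1.95%, 6.78% and 3.89% were called in those directions with the block, and 1.54%, 6.21% and 3.46% with the random block. The block changed no other count of called subunit genes. Array weights gave 7 higher for luteolin against control (2.78% of all genes), 4 higher for luteolin + LPS against LPS (0.862%), 9 lower for LPS against control (8.81%) and 18 higher for luteolin over both states (5.24%). An intensity trend gave 1 higher (0.157% of all genes), 1 lower (2.06%) and 6 higher (1.11%) for the last 3 of these. For luteolin over both states averaging the probe sets gave 4 and median centring 1, where Uqcr11 was lost (adjusted p = 0.0503), and leaving out 1 array gave 0 to 5. Of all genes 122 of 11074 rose with averaged probe sets, 145 of 12071 with median centring and 27 to 182 without 1 array. Leaving out 1 array gave 0 to 1 higher for luteolin + LPS against LPS, where 3 to 40 of all genes rose. For LPS against control it gave 0 to 1 lower, where 79 to 332 of all genes fell. Median centring moved the median of all genes by at most 0.03. Few signs turned. With luteolin over both states Sdha gave 0.00705 with averaged probe sets, 0.00663 with median centring and -0.0459 to 0.0724 without single arrays, and Sdhb -0.018 to 0.0627 without single arrays. For the interaction Ndufb1 gave 0.0546 with array weights and -0.556 to 0.162 without single arrays, the highest without luteolin + LPS replicate 1, and Uqcrh -0.388 to 0.071, the highest without LPS replicate 1. For array weights and the trend, the cause was not tested. Dim genes such as Cox6b2 and Cox8b lie close to the lower limit of measurement.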

Other observations

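The machinery that builds the chain was described in the same way. Of 51 tested assembly factors of complexes I to V, 22 were above 0 with luteolin against control (median -0.04), 28 with luteolin + LPS against LPS (median 0.01) and 21 with LPS against control (median -0.11). Cox10, which makes the heme of complex IV, averaged 294 with luteolin + LPS against 398 with LPS, and 258 with luteolin against 366 in the control, and fell over both states by 0.47 ± 0.0817 (adjusted p = 0.0186). Lrpprc, which stabilizes mitochondrial mRNAs, averaged 1063 with LPS against 1738 in the control and fell by 0.71 ± 0.138 (adjusted p = 0.0188). No other assembly factor passed the test in limma. Without the block 1.16% of all genes rose and 1.92% fell with luteolin over both states, and 1.96% and 2.22% with LPS. With the replicate number as a block, 2 rose and 4 fell with luteolin over both states, 2 fell with luteolin + LPS against LPS, and 1 rose and 1 fell with LPS against control. Of all genes, 3.89% rose and 6.22% fell in the first of these fits, 1.95% and 2.84% in the second and 4.3% and 6.78% in the last.

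Of 76 tested genes of mitochondrial ribosomal proteins, which translate the subunits encoded in mitochondrial DNA, 29 were above 0 with luteolin against control (median -0.06), 44 with luteolin + LPS against LPS (median 0.04) and 21 with LPS against control (median -0.09). With luteolin over both states Mrpl49 rose by 0.56 (adjusted p = 0.025) and Mrpl19 fell by 0.49 (adjusted p = 0.0188). With LPS Mrpl52 rose by 1.14 (adjusted p = 0.0179), while Mrps35 fell by 0.57 (adjusted p = 0.0218) and Mrpl3 by 0.50 (adjusted p = 0.0195). Of all genes, 1.16% rose and 1.92% fell with luteolin over both states, and 1.96% rose and 2.22% fell with LPS. With the block 4 rose and 2 fell with luteolin over both states, against 3.89% and 6.22% of all genes. With luteolin + LPS against LPS 1 rose and 2 fell, against 1.95% and 2.84%, and with LPS against control 2 rose and 2 fell, against 4.3% and 6.78%.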
